A study of Mus musculus with 4 samples.

Results

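The complement genes of the injured mouse kidney are described here, as 33 genes for components, receptors and regulators of the complement system. They were taken by gene name from a table of 54078 features, and each of the 33 names matched 1 feature. Kidney RNA was sequenced at day 3 after both kidneys of adult male mice had been clamped for 30 min (bilateral ischemia-reperfusion, bI/R), in 2 libraries of WT and 2 libraries of KO mice. The WT mice were Apela flox/flox littermates without Cre, and the KO mice were Apela flox/flox with Ksp-Cre, which is driven by the Ksp-cadherin promoter of renal tubular epithelial cells. Both groups therefore carry the floxed allele and both were injured, and no uninjured kidney was among these libraries. Each library was described as a pool of RNA from 3 mice, so n = 2 counts pools and single animals cannot be seen. Which mouse entered which pool is not given. The strain label reads C57BL/6 x 129S4/SvJae, while only the first of these strains is named in the methods. The purpose of the comparison was to find genes altered by the loss of tubular Apela, which encodes the peptide Elabela, in injured kidneys.

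The libraries held 16045724 to 16927742 reads on genes. Apela, the targeted gene, had an FPKM (fragments scaled to gene length and to a total per library) of 5.27 and 4.57 in WT and of 0.536 and 0.245 in KO. Its log2 fold change was -2.62 with an adjusted p of 0.466 (limma with Benjamini-Hochberg adjustment), so the deleted gene itself was not called. Because the series text speaks of adipose tissue where the labels give kidney, the tissue was checked. The kidney markers Umod and Slc34a1 had an FPKM of at least 788 and at least 365 in every pool, while the adipocyte gene Adipoq was at 0 in 3 pools and at 0.268 in KO replicate 2. Of the other 5 adipocyte markers, Lep, Retn and Plin1 had at most 0.347, Fabp4 ran from 10.2 to 14.6, and Cidec had 1.37 and 0.282 in WT and 7.92 and 2.79 in KO. WT replicate 2 stood apart from the other pools by its macrophage and fibroblast genes, being the highest pool for 10 of 12 tested macrophage markers and for 6 of 6 fibroblast markers.

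Complement is a cascade of proteins in plasma and on cell surfaces that marks and lyses targets and recruits leukocytes. The classical pathway begins with C1q and its proteases C1r and C1s, the lectin pathway with collectins, ficolins and MASP proteases, and the alternative pathway with factor B, factor D and properdin. All of them cleave C3, and the later components C5 to C9 then form a pore in the target membrane. Regulators on host cells and in plasma keep the cascade in check. The liver makes most of the plasma components, and tubular epithelium, fibroblasts and macrophages make some of them within the kidney.

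Of the 33 genes, 23 reached an FPKM of 0.5 on average over the 4 pools and were tested. The highest was C3, with an FPKM of 155 and 223 in WT and of 210 and 33.2 in KO. A mean FPKM of at least 10 was found for 8 genes, namely C3, C1qa, C1qb, C1qc, C1qbp, Serping1, Cd59a and Cfp. Means from 1 to 10 were found for 14 genes, and Masp1 had a mean of 0.539. Across the tested genes the log2 fold change of KO over WT, on the scale of log2(FPKM + 0.5), ran from -1.91 for C4b to 0.45 for Cd59a. Its median was -0.48, against 0.0071 over all 15414 genes tested. A log2 fold change below 0 was found for 18 of the 23 genes, against 48.6% of all genes tested. No gene of the group had an adjusted p-value under 0.05 (limma with Benjamini-Hochberg adjustment over all genes tested), and the share among all genes tested was also 0%. The smallest adjusted p-value of the group, 0.466 for C4b, was also the smallest of the whole fit. With 2 pools a side, the smallest two-sided p of an exact permutation test is 0.333, so the values of single pools carry the description. At an unadjusted p under 0.05 in limma, 5 genes were lower in the KO pools, against 3.03% of all genes tested, and 0 were higher, against 3.29%. The number of complement genes at this p, in either direction, was 13 without WT replicate 1, 3 without WT replicate 2 and 2 without KO replicate 2, where the share among all genes tested was 11.2%, 4.46% and 5.05%, against 6.32% with all pools.

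**Figure D1:**
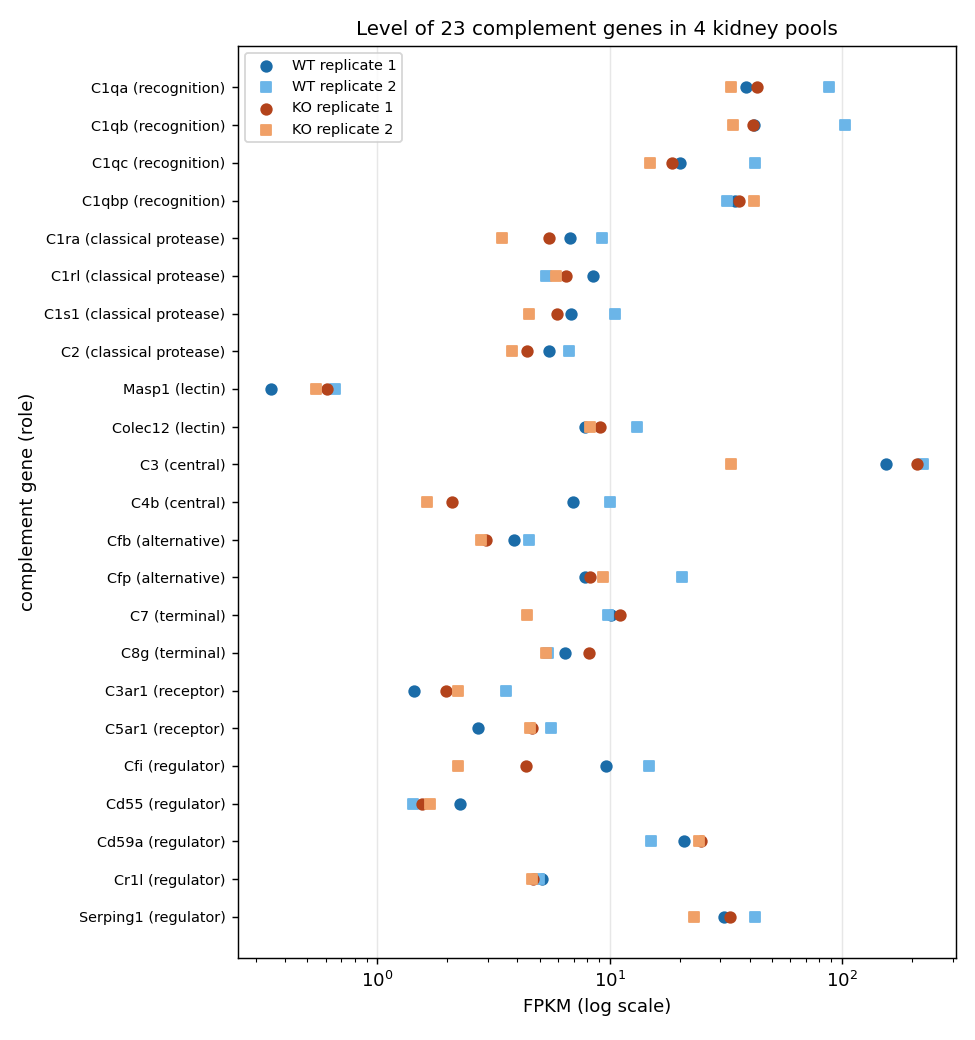
FPKM on a log scale (x axis) of the 23 tested complement genes (y axis, with their role), with 1 point for each of the 4 pools. C3 is the highest gene in 3 of the pools, and the WT replicate 2 point (light blue square) is the rightmost for 16 of the 23 genes.

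Both KO pools lay under both WT pools for 9 of the 23 genes, against 18.1% of all genes tested. Those genes were C4b, Cfi, C1ra, C1s1, C2, Cfb, C1qb, C1qc and Cr1l. Both KO pools lay over both WT pools for 2 genes, Cd59a and C1qbp, against 19.7% of all genes tested. The remaining 12 genes overlapped between the groups. WT replicate 2 was the highest pool for 16 of the 23 genes, where it was the highest for 29.1% of all genes tested. KO replicate 2 was the lowest pool for 14 of the 23 genes, where it was the lowest for 23.7% of all genes tested. The median log2 fold change was -0.17 without WT replicate 2 and -0.16 without KO replicate 2, so its size rested on these pools. Without WT replicate 2, 15 of the 23 genes remained below 0, and without KO replicate 2 it was 16.

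**Figure D2:**
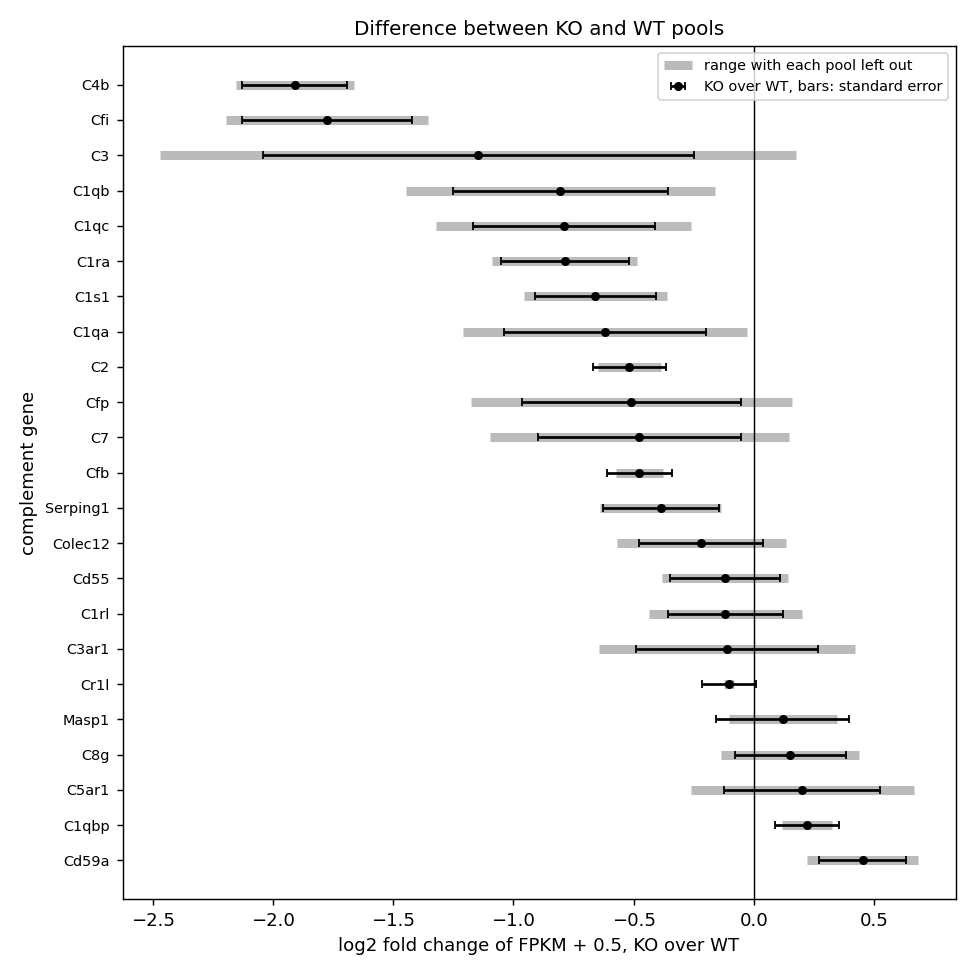
The log2 fold change of FPKM + 0.5, KO over WT (x axis), of the 23 tested complement genes (y axis, ordered by it). Points are the fitted values, thin bars their standard error, and grey bars the range over the 4 fits that each left out 1 pool. The grey bars of C4b, from -2.16 to -1.67, and of Cfi stay below 0, and that of C3 crosses 0.

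The sequences before the start sites are shown for C1qb and C3, whose levels set single pools apart, for C1s1, which was lower in both KO pools, and for Cd59a, which was higher in both. RefSeq promoter windows on GRCm38.p6 were matched for 25 of the 33 genes. They were not matched for C1qa, C2, C4b, Cfb, Cfi, Colec12, Masp1 and Serping1. Each sequence below is the 250 bases before the RefSeq start, written in the direction of transcription. Capitals mark matches to GAGGAA, a core that the macrophage factor PU.1 binds, to the core of the interferon-stimulated response element (GAAA, 2 free bases, GAAA), to TTCNNNGAA, the form of the gamma-interferon activation site, and to TATAAA. Both strands were searched, and no matches overlapped in these 4 windows.
C1qb, chr4:136886201-136886450, minus strand: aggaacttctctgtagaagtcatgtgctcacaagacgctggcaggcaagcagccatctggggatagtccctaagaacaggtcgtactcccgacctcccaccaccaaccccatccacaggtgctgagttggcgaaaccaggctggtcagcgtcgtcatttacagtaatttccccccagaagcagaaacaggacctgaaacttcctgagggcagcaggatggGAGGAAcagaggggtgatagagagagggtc
C3, chr17:57228137-57228386, minus strand: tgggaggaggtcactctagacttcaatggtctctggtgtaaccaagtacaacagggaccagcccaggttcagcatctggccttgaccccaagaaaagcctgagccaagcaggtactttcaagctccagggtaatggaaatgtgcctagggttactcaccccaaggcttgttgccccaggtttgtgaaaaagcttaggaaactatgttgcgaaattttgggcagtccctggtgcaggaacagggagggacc
C1s1, chr6:124542360-124542609, minus strand: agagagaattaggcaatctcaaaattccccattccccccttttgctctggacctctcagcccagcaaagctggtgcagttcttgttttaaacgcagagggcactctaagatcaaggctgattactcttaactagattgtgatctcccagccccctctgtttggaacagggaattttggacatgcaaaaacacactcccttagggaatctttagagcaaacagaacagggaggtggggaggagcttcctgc
Cd59a, chr2:104095551-104095800, plus strand: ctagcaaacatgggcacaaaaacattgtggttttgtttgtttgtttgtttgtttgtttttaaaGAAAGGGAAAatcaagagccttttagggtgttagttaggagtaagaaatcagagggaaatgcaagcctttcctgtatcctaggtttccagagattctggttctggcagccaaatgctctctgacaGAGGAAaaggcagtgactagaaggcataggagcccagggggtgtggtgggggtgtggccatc

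The C1qb window held GAGGAA once, beginning 30 bases before the start. The Cd59a window held the interferon-stimulated response element core beginning 187 bases before the start and GAGGAA beginning 62 bases before it. The windows of C3 and C1s1 held none of the motifs. Among all 32851 promoter windows of this length, GAGGAA was found in 23.25%, TATAAA in 12.4%, TTCNNNGAA in 7.02% and the interferon-stimulated response element core in 2.98%. A match describes the letters of the window only.

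C4b encodes C4, which the C1 protease cleaves and which forms the classical and lectin C3 convertase together with C2. Its FPKM was 6.97 and 9.99 in WT, on 638 and 979 reads, and 2.09 and 1.64 in KO, on 199 and 152 reads. Both KO pools were far under both WT pools, and the WT mean was 4.54 times the KO mean. The log2 fold change was -1.91 (SE 0.22), the unadjusted p was 0.000463 and the adjusted p 0.466 (limma). By log2 fold change it ranked 26 from the lowest among the 13403 genes whose mean FPKM reached 1, and by p-value it ranked 12 among all genes tested. C4b (ENSMUSG00000073418) lies on chr17:34728380-34743882 of GRCm38 on the minus strand, where the annotation gives 41 exons to its longest transcript. Its near-identical neighbour C4a was listed at an FPKM of 0.179 to 0.270, and how the authors' counting divided reads that match both is not given in the sources used here.

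Cfi encodes factor I, the protease that inactivates C3b and C4b with the help of cofactors. Its FPKM was 9.67 and 14.7 in WT and 4.36 and 2.22 in KO. The groups did not overlap, and the WT mean was 3.71 times the KO mean, with a log2 fold change of -1.78 ± 0.35 (SE, limma adjusted p = 0.657). It lies on chr3:129835884-129875332 on the plus strand. With each pool left out in turn the log2 fold change of Cfi stayed between -2.19 and -1.36.

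C2 and Cfb encode homologous serine proteases, the catalytic subunits of the classical and of the alternative C3 convertase. The FPKM of C2 was 5.50 and 6.68 in WT and 4.40 and 3.79 in KO, a log2 fold change of -0.52 ± 0.15 (SE, limma adjusted p = 0.785). That of Cfb was 3.88 and 4.51 in WT and 2.94 and 2.79 in KO, a log2 fold change of -0.48 ± 0.14 (SE, limma adjusted p = 0.770). Neither gene overlapped between the groups, and the pools of 1 group differed by at most 1.22 times. Cfb lies on chr17:34856374-34862518 and C2 on chr17:34862604-34898265, both on the minus strand as C4b is, and C4b ends 112 kb before Cfb begins. The stretch from C4b to C2 is part of the class III region of the major histocompatibility complex. It also holds 5 tested genes that are not complement genes, Stk19, Dxo, Skiv2l, Nelfe and Zbtb12, and their log2 fold changes ran from -0.11 to 0.14. An annotated gene that overlaps both Cfb and C2, Gm20547, was listed at 0 in all pools. Reads that fit it and either gene cannot be assigned with certainty. Zbtb12 also overlaps C2, on the other strand, and no strand-marking step is described for these libraries.

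C1ra and C1s1 encode C1r and C1s, the paired proteases of the C1 complex. The FPKM of C1ra was 6.72 and 9.26 in WT and 5.50 and 3.45 in KO, a log2 fold change of -0.79 ± 0.27 (SE, limma adjusted p = 0.785). That of C1s1 was 6.80 and 10.5 in WT and 5.94 and 4.51 in KO, a log2 fold change of -0.66 ± 0.25 (SE, limma adjusted p = 0.785). The log2 fold change of C1ra was -0.57 without WT replicate 2 and -0.49 without KO replicate 2, and that of C1s1 was -0.36 and -0.48. In both genes the order of the pools was the same, from WT replicate 2 through WT replicate 1 and KO replicate 1 to KO replicate 2. They are neighbours on chromosome 6, C1ra on chr6:124512405-124523443 on the plus strand and C1s1 on chr6:124530345-124542359 on the minus strand, 6.90 kb apart. C1rl, a protease gene related to C1r, lies 1.76 kb before C1ra. Its FPKM was 8.52 and 5.31 in WT and 6.49 and 5.85 in KO, so the groups overlapped, and its log2 fold change of -0.12 became 0.20 without WT replicate 1. The paralogs C1rb and C1s2 were listed at an FPKM of at most 0.128 and 0.139.

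Markers of other cells were read beside these genes, and their counts stand against 18.1% of all genes tested with both KO pools under both WT pools and 19.7% with both over them. Of the 6 fibroblast markers, Dcn and Lum had both KO pools under both WT pools, and the summed FPKM of the list was 115 and 231 in WT and 139 and 154 in KO. Of the 6 proximal tubule markers, 4 had both KO pools under both WT pools and 1, Slc22a6, over them, with a summed FPKM of 1452 and 1093 in WT and 803 and 1220 in KO. No marker of either list was at 0 in any pool. Of the 5 hepatocyte markers none separated the groups, and Alb, which defines liver cells, had an FPKM from 0.408 to 0.868. The other hepatocyte markers were Ttr, at 24.3 to 50.8, Serpina1a, at 7.08 to 27.9, Apoa1, at 0.0941 to 3.29, and Apoh, at 0.927 to 2.65. The part of these cells in the levels of C4b, Cfi, C2, Cfb, C1ra and C1s1 was not tested.

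C3 is the component on which all pathways meet, and its FPKM was the most uneven among the tested complement genes between pools of 1 genotype. KO replicate 1, at 210, lay within the range of the WT pools, 155 and 223, and KO replicate 2 had 33.2. The reads behind these values were 12809 and 19720 in WT and 18066 and 2771 in KO. The lowest of the other pools was thus 4.67 times the level of KO replicate 2. The log2 fold change was -1.15 with a standard error of 0.90 (adjusted p = 0.840, limma), with values of 0.18 when KO replicate 2 was left out and of -2.47 when KO replicate 1 was. C3 lies on chr17:57203970-57228136 on the minus strand, far from C4b, with 41 exons in its longest transcript. Vcam1, an adhesion molecule of injured tubules and endothelium, was low in the same pool, with an FPKM of 14.6 and 31.0 in WT and of 10.5 and 2.59 in KO. Havcr1, which encodes the tubular injury protein KIM-1, had an FPKM of 210 and 393 in WT and of 249 and 105 in KO. The other 3 injury markers did not share this low value. Lcn2 had 133 and 95.2 in WT and 249 and 273 in KO, Krt20 had 35.6 and 36.8 in WT and 60.0 and 61.0 in KO, and Sox9 ran from 6.64 to 10.7. The part of tubular injury in the C3 level of this pool was not tested.

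**Figure D3:**
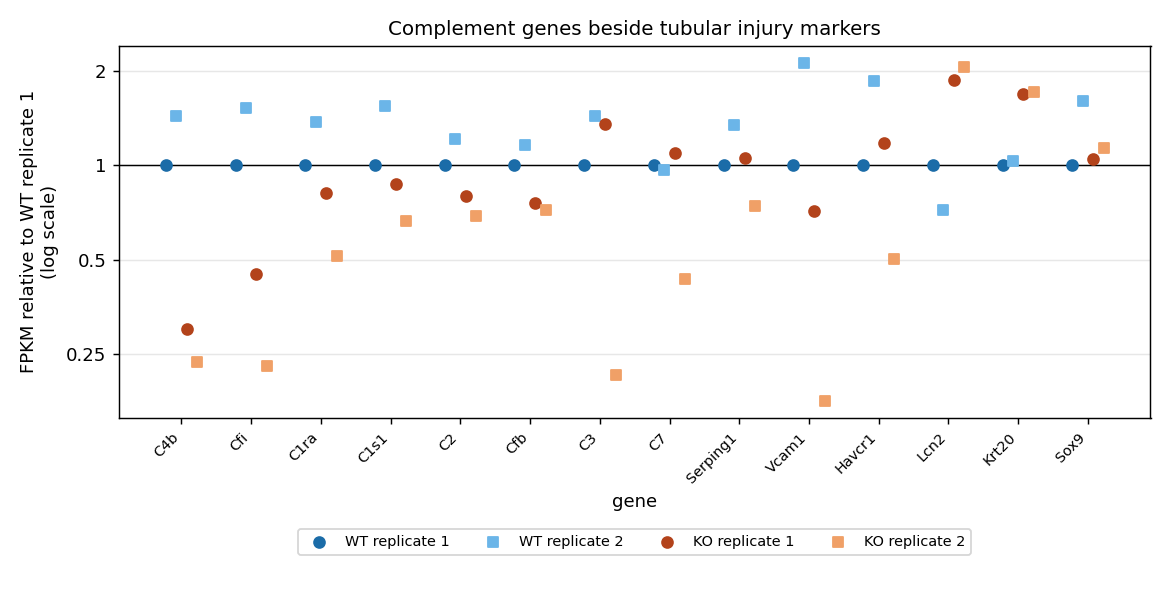
FPKM relative to WT replicate 1 (y axis, log scale) of 9 complement genes and 5 tubular injury markers (x axis), with 1 point for each pool. KO replicate 2 lies at 0.214 for C3 and at 0.177 for Vcam1, while both KO pools lie under both WT pools for C4b, at 0.300 and 0.236, and over them for Lcn2 and Krt20.

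C1qa, C1qb and C1qc encode the chains of C1q, the recognition protein of the classical pathway, which macrophages make. The FPKM of C1qa was 38.7 and 88.3 in WT and 43.1 and 33.3 in KO. That of C1qb was 42.0 and 103 in WT and 41.4 and 33.9 in KO, and that of C1qc was 20.1 and 42.4 in WT and 18.6 and 14.9 in KO. For all 3 chains WT replicate 2 had more than 2.1 times the level of WT replicate 1, while WT replicate 1 and KO replicate 1 were close to each other. C1qb and C1qc did not overlap between the groups, but for C1qb the gap was the one between 42.0 and 41.4. The log2 fold changes were -0.62, -0.80 and -0.79 for C1qa, C1qb and C1qc (standard errors 0.42, 0.45 and 0.38; adjusted p = 0.824, 0.798 and 0.797, limma), and without WT replicate 2 they were -0.03, -0.16 and -0.26. The 3 genes lie side by side on the minus strand of chromosome 4, C1qb on chr4:136880129-136886187, C1qc on chr4:136889804-136893065 and C1qa on chr4:136895917-136898803.

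The macrophage markers were high in the same pool, as were the fibroblast markers, of which Col1a1 had an FPKM of 44.1 and 101 in WT and of 54.8 and 59.5 in KO. Of 12 macrophage marker genes, matched by 13 features, 12 features were tested, and WT replicate 2 was the highest pool for 10 of them. Their summed FPKM was 101 and 253 in WT and 139 and 151 in KO, of which Lyz2 alone held 57.5 and 164 in WT and 89.2 and 104 in KO. Adgre1, which encodes F4/80, had an FPKM of 3.09 and 11.2 in WT and of 3.89 and 2.43 in KO. Both KO pools lay under both WT pools for 3 of the 12, Cx3cr1 and Aif1 among them, near the 18.1% of all genes tested, and over them for 1, against 19.7%. That gene was Cd163, at 0.422 and 0.341 in WT and 0.865 and 1.14 in KO. None of the tested markers was at 0 in any pool, and the second feature named Itgam was at 0 throughout. The summed FPKM of the C1q chains was 101 and 234 in WT and 103 and 82.1 in KO. Set against the summed macrophage markers, a ratio chosen after the values were seen, it was 0.998 and 0.925 in WT and 0.743 and 0.545 in KO. With Lyz2 left out of the sum the ratio was 2.32 and 2.65 in WT and 2.08 and 1.76 in KO. The ratio is given as a description, and Lyz2 holds most of the first sum. In RNA of whole kidneys, fewer macrophages and less C1q RNA in each of them cannot be told apart. The part of macrophages or fibroblasts in the C1q levels, and in those of the genes that follow, was not tested.

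**Figure D4:**
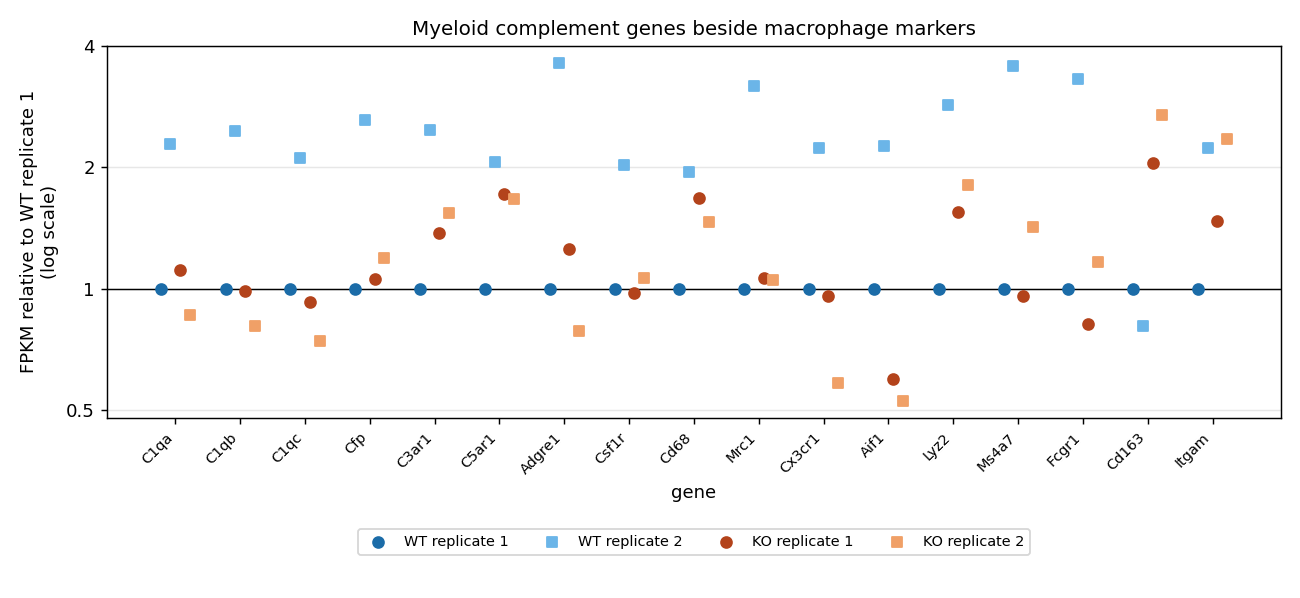
FPKM relative to WT replicate 1 (y axis, log scale) of 6 complement genes and of macrophage marker genes (x axis), with 1 point for each pool. WT replicate 2 (light blue square) is the highest for all 6 complement genes and for the markers shown other than Cd163 and Itgam.

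Cfp, C3ar1 and C5ar1 were also highest in WT replicate 2. For C5ar1, WT replicate 1 was the pool that stood apart, below the other 3. Cfp encodes properdin, which stabilizes the alternative C3 convertase and is made by leukocytes, and its FPKM was 7.81 and 20.5 in WT and 8.26 and 9.33 in KO. Its log2 fold change was -0.51 ± 0.45 (SE, limma adjusted p = 0.854) and 0.16 without WT replicate 2. C3ar1 encodes the receptor of the anaphylatoxin C3a, and its FPKM was 1.45 and 3.58 in WT and 1.99 and 2.23 in KO. C5ar1 encodes the main receptor of C5a, and its FPKM was 2.71 and 5.61 in WT and 4.65 and 4.53 in KO. In both receptors the KO pools lay between the WT pools. The log2 fold change of C3ar1 was -0.11 and became 0.42 without WT replicate 2, and that of C5ar1 was 0.20 and became 0.66 without WT replicate 2 but -0.26 when WT replicate 1 was left out. The second C5a receptor, C5ar2, had an FPKM from 0.175 to 0.369 and was not tested. Vsig4, a complement receptor of tissue macrophages such as Kupffer cells, had 1 read in KO replicate 2 and 0 in the other pools. Neutrophil markers gave no common picture, with a summed FPKM of 11.1 and 22.8 in WT and of 11.9 and 29.0 in KO, and with Ly6g and Mpo at 0 in every pool.

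The tested regulators other than Cfi had log2 fold changes from -0.39 to 0.45. Cd59a encodes CD59, the membrane protein that blocks assembly of the pore, and its FPKM was 21.0 and 15.1 in WT and 24.8 and 24.3 in KO. Neither KO pool was as low as a WT pool, with a log2 fold change of 0.45 ± 0.18 (SE, limma adjusted p = 0.786), which was 0.22 without WT replicate 2. Its paralog Cd59b had an FPKM from 0.874 to 1.48. Cr1l encodes Crry, the rodent membrane inhibitor of C3 convertases. Its FPKM was 5.10 and 4.95 in WT and 4.67 and 4.62 in KO, the most even values of the group, with a highest pool 1.10 times the lowest. The KO pools were both lower, by a log2 fold change of -0.10 ± 0.11 (SE, limma adjusted p = 0.878). Cd55 encodes decay-accelerating factor, and its FPKM of 2.27 and 1.43 in WT and 1.56 and 1.69 in KO overlapped between the groups. Cd46, a membrane cofactor for factor I, had at most 0.393 and was not tested. Serping1 encodes the C1 inhibitor, which blocks C1r, C1s and the MASP proteases. Its FPKM was 31.2 and 42.1 in WT and 32.9 and 23.1 in KO, which overlapped, with a log2 fold change of -0.39 ± 0.24 (SE, limma adjusted p = 0.804) that was -0.17 without WT replicate 2 and -0.14 without KO replicate 2. C1qbp encodes a mainly mitochondrial protein that was named for binding C1q. Its FPKM was 34.6 and 31.8 in WT and 36.1 and 41.7 in KO, so the KO pools were the higher ones, with a log2 fold change of 0.22 ± 0.13 (SE, limma adjusted p = 0.798) that was 0.12 without KO replicate 2.

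Among the terminal components, RNA for C7 and C8g was found and RNA for the others was scarce. C7 joins the growing pore, and its FPKM was 10.1 and 9.84 in WT and 11.1 and 4.40 in KO. KO replicate 2 was again the low pool, and the log2 fold change of -0.48 ± 0.42 (SE, limma adjusted p = 0.854) became 0.15 without it. C8g encodes the gamma chain of C8, and its FPKM was 6.42 and 5.41 in WT and 8.17 and 5.32 in KO, which overlapped. C6 had an FPKM from 0.294 to 0.621. Hc, which encodes C5, had 1 read in each WT pool and 0 in the KO pools, and C9 had 1 read in KO replicate 2 alone.

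Among the lectin pathway genes of the complement group, Masp1 and Colec12 were tested. Mbl1, a complement gene outside that group, was also tested, with an FPKM of 3.37 and 3.00 in WT and 4.72 and 1.77 in KO. Masp1, which encodes a MASP protease, had an FPKM of 0.348 and 0.656 in WT and of 0.608 and 0.545 in KO. Colec12 encodes a membrane collectin that acts as a scavenger receptor, and its FPKM was 7.85 and 13.1 in WT and 9.12 and 8.21 in KO. For both genes the KO pools lay between the WT pools. The log2 fold change of Colec12 was -0.22 and became 0.13 without WT replicate 2. Colec11, which encodes the soluble collectin CL-11, had an FPKM from 0.307 to 0.574 on 8 to 16 reads. Masp2 and Fcna, the latter encoding ficolin A, had at most 5 and 4 reads in any pool. Cfd encodes factor D (adipsin), the alternative pathway protease that adipocytes secrete, and had 2 reads and 1 read in the WT pools and 0 in the KO pools. For Cfd, Hc, C9 and Vsig4, 4 genes in all, every pool was at or under 3 reads, which was taken as the limit of detection, so no fold change is given.

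Other complement genes were taken from a list of 31, matched by 32 features, of which 14 were tested. None had an adjusted p under 0.05 (limma), and the share among all genes tested was also 0%. At an unadjusted p under 0.05 (limma), 0 were lower in the KO pools, against 3.03% of all genes tested, and 0 were higher, against 3.29%. Both KO pools lay under both WT pools for 3 of the 14, near the 18.1% of all genes tested, and over for 0, against 19.7%. The median log2 fold change was -0.16. Cpn1 and Calr were among those lower in both KO pools. Cpn1 encodes the active subunit of carboxypeptidase N, which inactivates anaphylatoxins, and its FPKM was 36.4 and 49.9 in WT and 29.5 and 35.5 in KO. Calr encodes calreticulin, and its FPKM was 253 and 249 in WT and 216 and 193 in KO. Clu encodes clusterin, a fluid-phase inhibitor of the pore that injured tubules make, and its FPKM was 667 and 785 in WT and 728 and 534 in KO, the highest level among all the complement genes read here.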

How the data were processed

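Poly(A)-selected RNA of 4 kidney pools was sequenced. The authors deposited FPKM per gene and library. Their processing notes name HISAT2 2.0.5 and GRCm38.p6 (mm10), while the counting tool and the test model are not given in the sources used here. Gene positions were those of GRCm38: 97.1% of the 53620 genes shared with GENCODE M21 had identical coordinates. Multiplied by gene length, the FPKM were multiples of a single read's worth for 100% of nonzero values, within 0.01 of a read, which gave the reads quoted. The library totals that the FPKM imply were 1.61e+07 and 1.72e+07 in WT and 1.67e+07 and 1.62e+07 in KO. These totals differed from the reads on genes, most in WT replicate 2, with 16045724 reads on genes. The reads quoted carry counting error in addition to the differences between pools.

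From there, log2(FPKM + 0.5) was fitted with limma 3.58.1 in R 4.3.3 (mean-variance trend, no covariates, two-sided, Benjamini-Hochberg adjustment) for the 15414 genes whose mean FPKM reached 0.5. The threshold, after the paper, was an adjusted p under 0.05 at any fold change. Such fold changes understate those of low genes. Python 3.11.15 was used for the rest, and the fit was tested on simulated data. P-values set the difference between groups against the spread between pools, and the spread between single mice is not seen in them. The replicates of a group differed by more than counting error (chi-square per gene 31.5 for WT and 24.5 for KO).

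The genes and lists were chosen with earlier results of these data known. All 33 genes are accounted for. Values in every pool were to be given where the pools of the groups did not overlap, the mean FPKM was at least 10 or the unadjusted p was under 0.05. Alternatives were pseudocounts of 0.1 and 1, quantile normalization, no filter (genes at 0 in every pool left out), a mean FPKM of at least 1, voom weights on recovered reads (genes with at least 10), a replicate block, no trend, an unadjusted p, and each pool left out in turn, where the lone pool was assumed to vary like the other group. Some genes of these lists are not reported here.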

Additional observations from a re-analysis of the deposited data

How the results depend on the processing

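With 2 pools of 3 mice per group, even the loss of Apela, a log2 fold change of -2.62, was not called, and a count of 0 does not show that a gene was equal in both groups. The number of genes with an adjusted p under 0.05 was 0 in limma under every alternative run, also among the complement genes, and 687 to 1720 genes had an unadjusted p under 0.05. Taking an unadjusted p as the threshold gave 974 genes and 5 complement genes, and 2 to 13 complement genes with a pool left out. Adjusted p-values of the tested complement genes ran from 0.298 to 0.996 over the alternatives (limma).

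The median log2 fold change of the complement genes, -0.48, was -0.15 without a filter on low values, over all 33 genes, including the 10 under the filter. It ran from -0.60 to -0.16 with each pool left out. The number of complement genes whose groups did not overlap, 11, ran from 13 to 21 with a pool left out, where a lone pool makes an overlap less likely. Among all genes tested the share was 37.8% with all pools and 66.3% to 73.7% with a pool left out, and among the complement genes it was 47.8% and 56.5% to 91.3%.

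Of 183 values of single complement genes under alternatives that kept all pools, 0 changed direction, although only the pseudocounts, quantile normalization and voom could move one. With a pool left out, 10 of 92 changed direction. With each pool left out in turn, the log2 fold change ran from -0.44 to 0.20 for C1rl, -0.26 to 0.66 for C5ar1, -0.38 to 0.14 for Cd55 and -0.10 to 0.34 for Masp1, with the reversed value without WT replicate 1. It ran from -1.18 to 0.16 for Cfp, -0.57 to 0.13 for Colec12 and -0.65 to 0.42 for C3ar1, reversed without WT replicate 2. It ran from -0.14 to 0.44 for C8g, reversed without KO replicate 1, and from -2.47 to 0.18 for C3 and -1.10 to 0.15 for C7, reversed without KO replicate 2. The cause was not tested.

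The labels link same-numbered pools by a number only, and their deviations were not correlated across genes (r = -0.0017). Something shared by such pools that moved few genes, or moved them in opposite directions, would not show in this value. With the replicate block 0 genes passed the threshold, with 932 at an unadjusted p under 0.05, 4 of them complement genes.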
